A study of Rattus norvegicus with 2 samples.

Results

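The cholinergic genes described here are 7 of the 16581 genes that could be named on a rat expression array: Chat, Slc18a3, Slc5a7 and Ache, which make, package, recover and break down acetylcholine, and the muscarinic receptor genes Chrm1, Chrm2 and Chrm3. They were chosen by name, through the transcript accession that the array files give for each probe. All 7 had at least 1 probe, 10 probes on 11 spots in all. The tissue was the nucleus tractus solitarii (NTS), taken from 1.0 mm in front of the calamus scriptorius to 0.5 mm behind it, of 9-week-old spontaneously hypertensive rats (SHR). This inbred strain develops high blood pressure, and both groups belong to it. The labels list no treatment or transgene. The male group was 1 pool of RNA from 5 rats and the female group 1 pool from 5 rats, each measured on 1 array. With 1 array per sex there was no spread between animals to set a difference against, so no test was made and no p-value is given. Every difference below is between these 2 pools.

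Acetylcholine is made from choline and acetyl-CoA by choline acetyltransferase, loaded into vesicles by the vesicular acetylcholine transporter, and split in the synaptic cleft by acetylcholinesterase, after which choline is taken back up by the high-affinity choline transporter. Muscarinic receptors are G protein-coupled: the M1 and M3 types act mainly through Gq and phospholipase C, and the M2 type through Gi and G protein-gated potassium channels. In the dorsal medulla the large cholinergic groups are the motor neurons of the dorsal motor nucleus of the vagus and of the hypoglossal nucleus, which lie just below the NTS, and some neurons of the NTS itself are cholinergic. The arrays read total RNA of the dissected piece and cannot say which of these cells gave the signal.

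Chat and Slc18a3 have an uncommon arrangement, in that the gene of the vesicular transporter lies inside that of the synthesising enzyme. The 250 bases before the annotated start of each are shown because these genes differed by similar amounts between the arrays. That of Slc5a7, the third presynaptic gene, is added for the same reason, and that of Chrm3 because it was the 1 measured gene of the set with the opposite sign. The sequences are from RefSeq on build GRCr8, 5′ to 3′ in the direction of the gene. All 7 genes matched the promoter table. The windows of Chat, Slc18a3 and Slc5a7 end where the annotated gene begins. That of Chrm3 lies inside the annotated gene, which begins at base 64696549. The window of Chrm2 also lies inside its gene, and those of Chrm1 and Ache lie partly inside. For these genes the start used is the one listed with the promoter, not the outer end of the gene. Capitals mark, on either strand, the TATA box core TATAAA, the GC box core GGGCGG and, as the core of a cyclic AMP response element, TGACGT.
Chat, chr16:7723417-7723666, minus strand: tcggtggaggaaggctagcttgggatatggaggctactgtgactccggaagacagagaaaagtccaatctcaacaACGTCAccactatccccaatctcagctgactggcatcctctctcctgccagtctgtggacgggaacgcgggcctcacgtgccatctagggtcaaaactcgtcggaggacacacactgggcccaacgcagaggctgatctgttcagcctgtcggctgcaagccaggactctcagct
Slc18a3, chr16:7722815-7723064, minus strand: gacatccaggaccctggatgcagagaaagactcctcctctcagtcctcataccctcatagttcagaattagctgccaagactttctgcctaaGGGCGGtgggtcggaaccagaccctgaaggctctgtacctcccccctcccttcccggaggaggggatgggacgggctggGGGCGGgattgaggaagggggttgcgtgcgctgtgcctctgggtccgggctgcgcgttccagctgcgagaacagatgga
Slc5a7, chr9:7953510-7953759, minus strand: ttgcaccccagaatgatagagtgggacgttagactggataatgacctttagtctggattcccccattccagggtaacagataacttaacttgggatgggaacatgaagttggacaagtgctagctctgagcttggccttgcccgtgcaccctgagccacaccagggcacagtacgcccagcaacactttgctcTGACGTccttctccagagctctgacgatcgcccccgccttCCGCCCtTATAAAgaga
Chrm3, chr17:64696677-64696926, plus strand: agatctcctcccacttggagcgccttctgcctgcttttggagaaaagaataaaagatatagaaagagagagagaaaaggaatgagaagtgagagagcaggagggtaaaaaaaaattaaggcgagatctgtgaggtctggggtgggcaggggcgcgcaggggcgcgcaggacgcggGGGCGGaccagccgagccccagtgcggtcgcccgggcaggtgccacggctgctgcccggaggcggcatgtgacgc

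The windows of Chat and Slc18a3 do not overlap, and the annotated starts of these genes are 602 bases apart on the same strand. The window of Chat held TGACGT once, on the opposite strand, 175 bases before the start, and neither other motif. Slc18a3 held GGGCGG at 158 and 79 bases before its start. Slc5a7 held all 3 motifs, with TATAAA 10 bases, GGGCGG on the opposite strand 17 bases and TGACGT 57 bases before the start. Chrm3 held GGGCGG once. Ache held 4 matches of GGGCGG, 2 of which overlapped. Chrm2 held 1, and Chrm1 held none of the 3 motifs. Over 33469 rat promoters of this length, 12.9% held TATAAA, 30.5% GGGCGG and 6.95% TGACGT. The share of G and C ran from 53.2% for Slc5a7 to 75.6% for Ache, against a median of 51.2% over all promoters. No motif was common to Chat, Slc18a3 and Slc5a7. A match describes the letters of the window and says nothing of a factor bound there.

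Signals are given as a percentage of the array's own 75th percentile, and are called scaled signal. The ± after a signal is the error the scanner program wrote for that spot, and the ± after a difference combines it over both arrays. On bright spots that error was 10% of the signal, so a log2 difference between single bright spots carries about 0.20. Differences are female minus male on the log2 scale. Both arrays were on 1 slide and read in 1 scan. Of the 16581 genes, 13428 were well above background on both arrays, and over these the differences had a median of 0.02 and an SD of 0.23. Between repeated spots of a probe the difference varied less, with a median SD of 0.04 over 1326 probes that had at least 8 spots. Of these, 1126 fell in the brightest of 4 signal classes, at 0.04 against 0.13 over the genes of that class. In the dimmest class the SD was 0.19 over 41 probes, against 0.36 over genes. These figures for repeated probes cover spots, not animals, pools, labelling or arrays. The noradrenaline synthesis genes Th and Dbh, which mark the A2 neurons of the NTS, had scaled signals of 602 and 399 in males. In females these were 532 and 381. The other noradrenergic markers ranged widely, with Slc18a2 at 108 in males and 104 in females. Ddc was at 10.2 and 11.8, and Slc6a2 at 1.27 and 1.55. No other tissue was measured, so these values cannot test the dissection.

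The genes that make, package, recover and break down acetylcholine were all lower on the female array, by small amounts. Their 4 differences ran from -0.35 to -0.12 with a median of -0.25, and none reached 1.5-fold. Of the 6 genes of the set that were measured on both arrays, 5 were lower on the female array, where 44.5% of all measured genes were. None of the 6 was past 1.5-fold in either direction, against 2.29% of all genes, and 1, Slc18a3, was past a difference of 0.32 on the log2 scale, against 8.14%. The median of the 6 was -0.24.

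Slc18a3, the vesicular acetylcholine transporter, had the largest difference of the 6 measured genes of the set. Its single probe gave 102.0 ± 10.2 in males and 80.2 ± 8.02 in females. The error ranges of the arrays did not overlap. The difference was -0.35 ± 0.20, or 1.27-fold. Over genes of the same signal class (the measured genes were ranked by mean signal and cut into 4 equal classes) the SD of the differences was 0.13, so Slc18a3 lay 2.77 such SDs from 0.

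Chat, choline acetyltransferase, was read by 2 probes. The bright one, A_44_P1080250, gave 293 ± 29.3 in males and 241 ± 24.1 in females. The dim one, A_44_P210502, gave 3.66 ± 0.377 and 3.05 ± 0.317. Both were lower on the female array by almost the same amount, -0.28 and -0.26. For both probes the error ranges of the arrays overlapped by a small margin.

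Slc5a7, the high-affinity choline transporter that returns choline to the nerve ending, gave 105 ± 10.5 in males and 89.8 ± 8.98 in females. The difference was -0.23 ± 0.20, or 1.17-fold, and the error ranges overlapped. Slc18a3, Chat and Slc5a7 could not be told apart in their differences. That of Slc18a3 was 0.08 below that of Chat with an error of 0.25, and that of Slc5a7 was 0.04 above Chat with the same error.

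Ache, acetylcholinesterase, gave 144 ± 14.4 in males and 132 ± 13.2 in females. These ranges overlapped widely. Its difference of -0.12 ± 0.20 was the smallest of the 4 and lay within 1 SD of genes of its signal class. Unlike the presynaptic proteins, this enzyme is also made by cells that only receive cholinergic input.

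**Figure D1:**
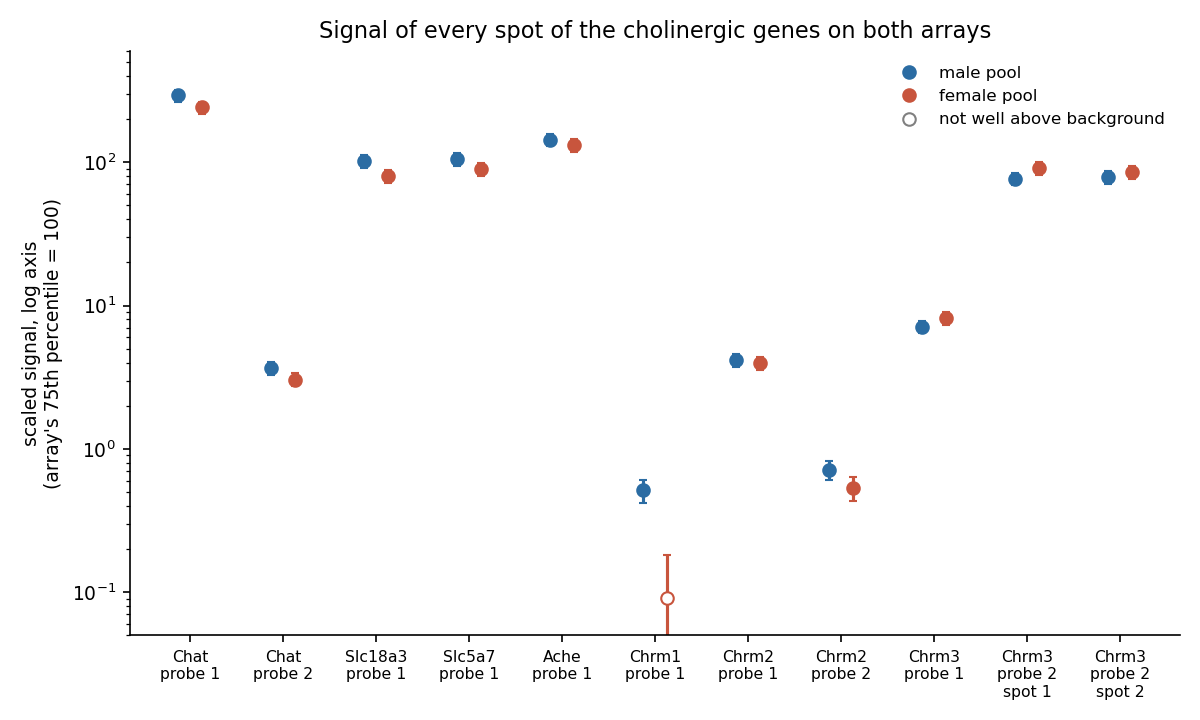
Scaled signal of each of the 11 spots of the 7 genes on a log axis, male pool in blue and female pool in red, with bars for the error written by the scanner program and an open circle where a spot was not well above background. Each spot of Chat, Slc18a3, Slc5a7 and Ache is lower in the female pool, the 3 spots of Chrm3 are higher, and Chrm1 is at the edge of detection.

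The muscarinic receptors did not share a sign. Chrm3 was higher on the female array, Chrm2 was lower there by an amount that depended on the probe, and Chrm1 was barely detected.

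Chrm3, the M3 receptor of smooth muscle and glands that neurons also express, had 2 probes and 3 spots. Probe A_44_P1158885 gave 7.15 ± 0.72 in males and 8.20 ± 0.824 in females. Probe A_64_P036509 was spotted at 2 places, with 76.5 and 79.0 in males against 90.7 and 85.1 in females. All 3 spots were higher in the female pool with error ranges that overlapped, and the female minus male difference of the repeated probe was 0.24 at one place and 0.11 at the other. The gene's difference was 0.19, or 1.14-fold, against an SD of 0.16 over genes of the same signal class. The error written by the scanner program was 0.13.

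Chrm2, the M2 receptor that slows the heart and damps acetylcholine release, was dim. Probe A_64_P036514 gave 4.14 ± 0.424 in males and 3.95 ± 0.405 in females, a difference of -0.07. Probe A_64_P267159 gave 0.716 ± 0.112 and 0.534 ± 0.0977, a difference of -0.42 ± 0.35. The second probe read 51 on the male array over a local background of 41, so its signal rested on few units of brightness. Both probes were lower on the female array but differed in size, and the mean of -0.24 lay inside the SD of 0.36 over genes this dim.

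Chrm1, the M1 receptor common in forebrain neurons, had 1 probe, which was above background on the male array only. Before correction it read 44 over a local background of 35 in males and 39 over 34 in females. The scaled signal was 0.515 ± 0.0963 in males, and 0.0911 ± 0.0917 in females, not well above background. The lowest signal well above background on the female array was 0.344. The male signal was 1.497-fold that value, a ratio that leaves out spot error. Chrm1 passed the detection limit through the male array alone, so this ratio is no evidence of a sex difference. The gene is left out of the counts and medians above.

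A common shift of an array cancels between its genes, so the difference of Chrm3 is also given relative to the others. Chrm3 was singled out for its sign, so these values restate the differences above and are no separate support. It differed from Slc18a3 by 0.53 ± 0.24, from Chat by 0.46 ± 0.19 and from Slc5a7 by 0.41 ± 0.24. From Chrm2 it differed by 0.43 ± 0.24 and from Ache by 0.31 ± 0.24. Over the 12 other settings the value against Slc18a3 was as low as 0.44, against Chat 0.32 and against Slc5a7 0.29. Against Chrm2 it was as low as 0.23 and against Ache 0.21, both within the scanner error. That error covers neither animals nor pools. Centring each array on its median or on spike-in spots shifts all genes alike, so it could not change these values. The authors' table holds the same intensities over a constant and could not change them beyond rounding.

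**Figure D2:**
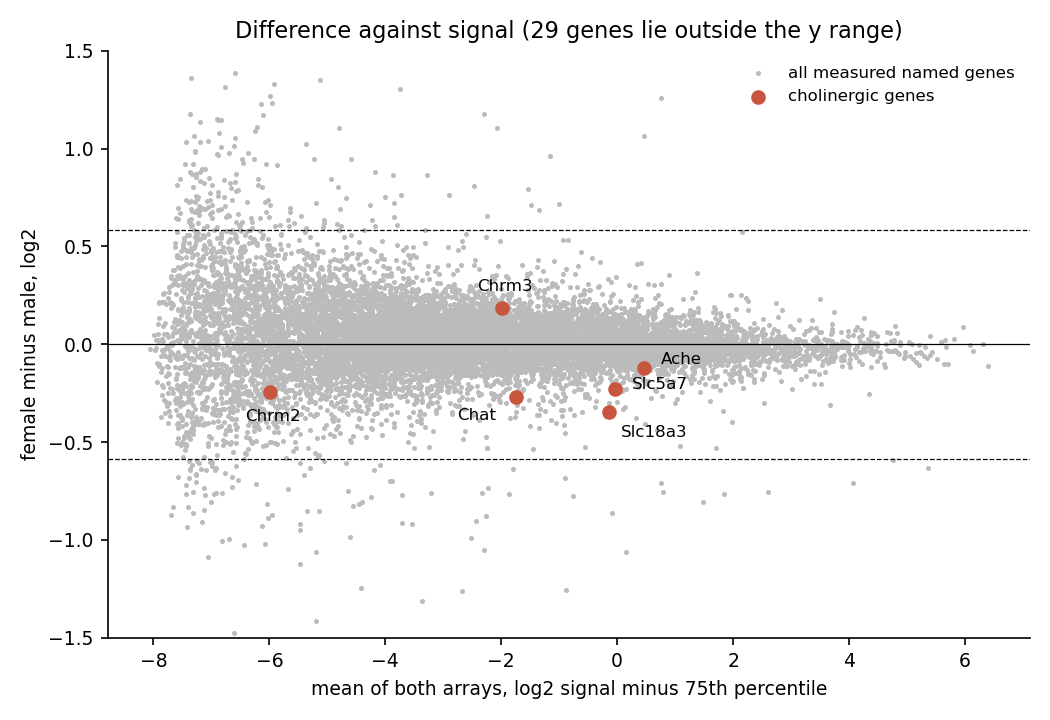
Female minus male difference against mean signal for the 13428 measured genes (grey) and the 6 measured cholinergic genes (red), with dashed lines at 1.5-fold; 29 genes lie beyond the plotted range of 1.5 on the log2 scale. Slc18a3, Slc5a7 and Chat lie below 0 by 2.77, 1.81 and 1.73 SDs of their signal class. Chat is drawn at the mean signal of its bright and its dim probe, and its SD is that of the class of this mean. Of the 6, only Slc18a3 is past a difference of 0.32. Ache lies 0.98 SDs below 0 and Chrm3 1.20 SDs above it, and Chrm2 lies where the cloud is wide.

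The other muscarinic genes added little. Chrm4, the M4 receptor, which like M2 couples to Gi, gave 8.04 ± 0.807 in males and 7.90 ± 0.793 in females, a difference of -0.02. Chrm5, the M5 receptor, was above background on the male array only, at 0.483 there, and was bounded at no less than 1.40-fold higher in males. As for Chrm1, detection through 1 array alone makes this ratio no evidence of a sex difference.

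Of 26 measured genes of muscarinic signalling (G protein subunits, phospholipase C isoforms, arrestins, RGS proteins and potassium channels), none passed 1.5-fold. Of these, 17 were higher and 9 lower on the female array, with a median of 0.01 that turned to -0.02 when each array was centred on its median. Over all measured genes 44.5% were lower and 2.29% passed 1.5-fold. The brightest, Gnai2 and Gnai3, encode Gi subunits and had differences of 0.00 and -0.03. Kcnq5, an M-current channel subunit that Gq-coupled muscarinic receptors close, was dim and had the highest difference, 0.36 ± 0.24. It was chosen after its values were seen.

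Of 19 measured genes of choline supply, acetyl-CoA supply and receptor or cholinesterase accessory proteins, none passed 1.5-fold, against 2.29% of all genes. On the female array 9 were higher and 10 lower, where 44.5% of all measured genes were lower. The median was -0.03. Acly, which makes cytosolic acetyl-CoA in all cells, was at -0.23 and Tmem35a, a chaperone of nicotinic receptors, at -0.03. Slc10a4, a vesicle protein of cholinergic and monoaminergic neurons, gave 16.7 in males and 14.1 in females. Its difference of -0.24 was the lowest of the 19 and close to those of Chat and Slc5a7. Prima1, which anchors acetylcholinesterase to neuronal membranes, was at -0.17, near Ache. The choline kinase genes Chka and Chkb, of general phospholipid synthesis, were at 0.08 and 0.10. Slc10a4, Prima1 and the choline kinases were chosen after their values were seen.

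Of 9 nicotinic receptor subunit genes, 6 were measured and none passed 1.5-fold, against 2.29% of all genes. The median was -0.11, with 5 of 6 lower on the female array, where 44.5% of all measured genes were. The brightest were Chrnb4 and Chrna3, subunits of the ganglionic type of receptor, at -0.05 and 0.07. Chrna7, the subunit of the homomeric receptor, had the lowest difference, -0.30 ± 0.21, from a dim signal of 3.64 in males and 2.96 in females. It was chosen after its values were seen.

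Most markers of motor neurons had the sign of the presynaptic genes. Of 17 measured markers, 13 were lower on the female array, where 44.5% of all measured genes were, and 4 were higher. Their median was -0.18. Past 1.5-fold were 2, both higher in males, where 0.797% of all genes were. These were Calca, which encodes calcitonin gene-related peptide, at 2.48-fold, and Uts2, the urotensin 2 gene of cholinergic motor neurons, at 2.37-fold. Uts2 gave 7.22 in males and 3.05 in females. Calca gave 15.2 and 6.13 as a mean of 2 probes. The neurofilament genes Nefl, Nefm and Nefh were at -0.44, -0.40 and -0.39. Prph, the peripherin gene of neurons with peripheral axons, was at 463 in males and 409 in females, a difference of -0.18. The signals of the 17 markers summed to 1317 in males and 1073 in females, most of it from Prph, Nefm and Nefl. Nefm gave 451 in males and 343 in females, and Nefl 188 and 139. The motor neuron transcription factor genes Isl1 and Mnx1 were dim, at 2.19 and 0.847 in males and 2.14 and 0.735 in females. Their differences were -0.03 ± 0.22 and -0.21 ± 0.30. Of the other factor genes, Isl2, Lhx4 and Tbx3 were at -0.13, -0.10 and -0.14. Phox2a and Tbx20 were higher on the female array, at 0.13 and 0.04. For each of these factor genes the difference was smaller than its scanner error. The 4 markers that were higher on the female array ran from 0.02 for Ret to 0.13. The markers named here without passing 1.5-fold were chosen after their values were seen. The list's median was -0.30 over the 10 markers kept in the brighter probes. It was -0.16 over 18 markers without the filter on dim probes. Calca, Calcb and the neurofilaments are also made by other neurons, sensory ones among them. In RNA from pooled tissue, fewer cells of a type and less RNA per cell cannot be told apart, and the part of motor neuron content in the differences of Chat, Slc18a3 and Slc5a7 was not tested.

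General neuron markers did not show a difference of that size. Of 10, 7 were lower and 3 higher on the female array, with a median of -0.04 and a range from -0.13 to 0.09. The median of the 4 genes for making, packaging, recovering and breaking down acetylcholine lay 0.21 below that of the neuron markers. Each of the presynaptic genes lay below the lowest of the 10 neuron markers, and Ache did not. Of the 5 noradrenergic markers, 3 were lower and 2 higher on the female array, from -0.18 for Th to 0.29 for the dim Slc6a2, named as the ends of the range after their values were seen, with a median of -0.06.

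Other tissue components also differed between the pools. All 10 oligodendrocyte markers were lower on the female array, where 44.5% of all measured genes were. Their median was -0.21, close to that of the cholinergic genes. Their signals summed to 2245 in males and 1890 in females. All 10 choroid plexus genes were past 1.5-fold higher on the female array, where 1.5% of all genes were, with a median of 2.65 that was 1.18 with normexp and 1.48 without background correction. Their signals summed to 785 in males and 9807 in females, most of it from Ttr, and to 168 and 481 without that gene. All 6 measured blood genes were past 1.5-fold higher on the male array, where 0.797% of all genes were. Their signals summed to 5611 in males and 3599 in females. Astrocyte and microglia markers had medians of -0.05 and -0.04. No list had a defining marker at 0 among those measured. The part of these components in the cholinergic differences was not tested.

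**Figure D3:**
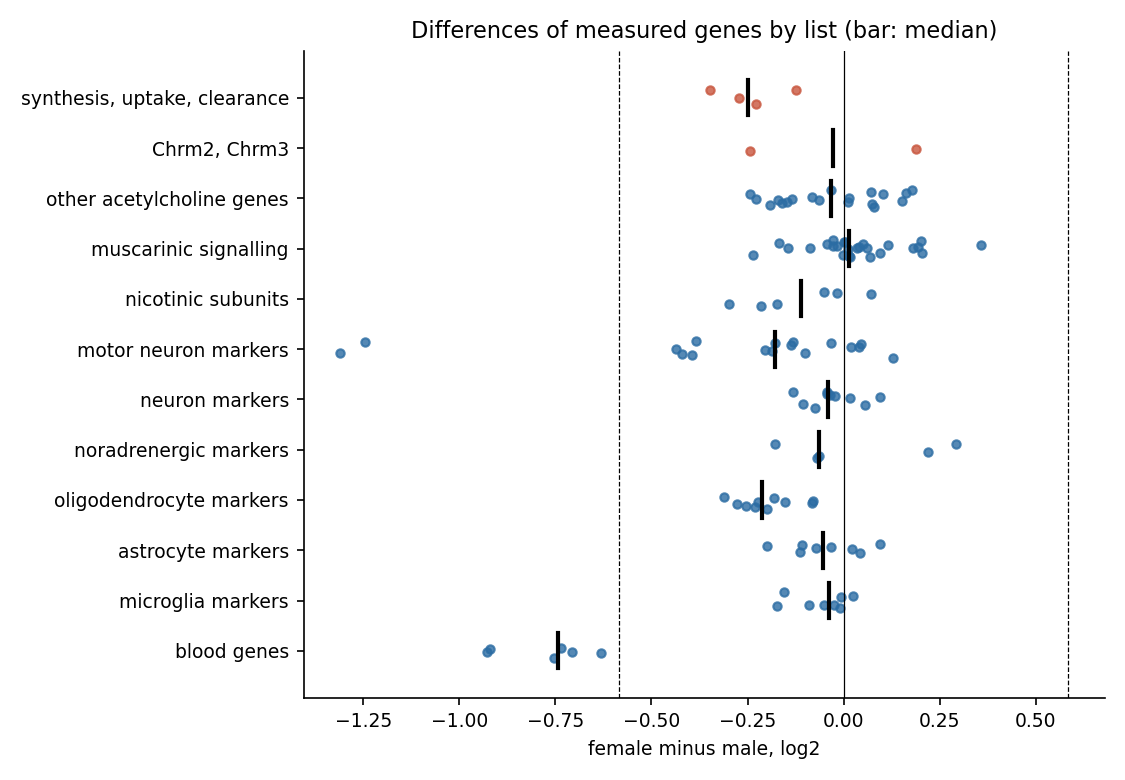
Female minus male differences of the measured genes of 12 lists, 1 point per gene with a bar at the median and dashed lines at 1.5-fold; the choroid plexus list, whose 10 genes all lie above 0.96, is not drawn. Acetylcholine synthesis, uptake and clearance genes (red, top) and oligodendrocyte markers all lie to the left of 0, as do 13 of 17 motor neuron markers, while muscarinic signalling genes and neuron markers lie on both sides.

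The genes with values most like those of Chat, by distance between log2 signals over the 2 arrays, were Cnp (0.03), Scn4b (0.05) and Plac8 (0.05). Cnp, an enzyme of myelin, is one of the 10 oligodendrocyte markers. With 2 arrays this likeness means only a similar signal and a similar difference, and the signal of Chat used here is the mean of its bright and its dim probe.

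The signs held when the arrays were processed in other ways. Slc18a3, Chat, Slc5a7 and Ache were lower and Chrm3 higher on the female array in each of 12 other settings. Not all of these settings could move a gene. Slc18a3, Slc5a7 and Ache have a single probe, so settings that only choose or combine probes left them unchanged. The authors' table holds the same intensities over a constant. For these genes the signs could move only with background correction or normalization. Slc18a3 ran from -0.38 to -0.26, Chat from -0.30 to -0.18 and Slc5a7 from -0.26 to -0.14. Ache ran from -0.15 to -0.03, the last when the arrays were centred on spike-in spots, and Chrm3 from 0.12 to 0.28. Chrm2 had a value in 11 settings and ran from -0.35 to -0.07. Spike-in centring added 0.09 to every gene, which turned Chrm4 from -0.02 to 0.06. It also turned the medians of neuron markers (0.05), noradrenergic markers (0.03), astrocyte markers (0.04), microglia markers (0.05) and the other acetylcholine genes (0.06). The last was also above 0, at 0.01, when each gene was read by its brightest probe. The presynaptic genes, motor neuron markers (-0.09), nicotinic subunits (-0.02) and oligodendrocyte markers (-0.12) stayed lower on the female array. These settings share the same 2 hybridisations, so they show dependence on processing and not on animals.

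**Figure D4:**
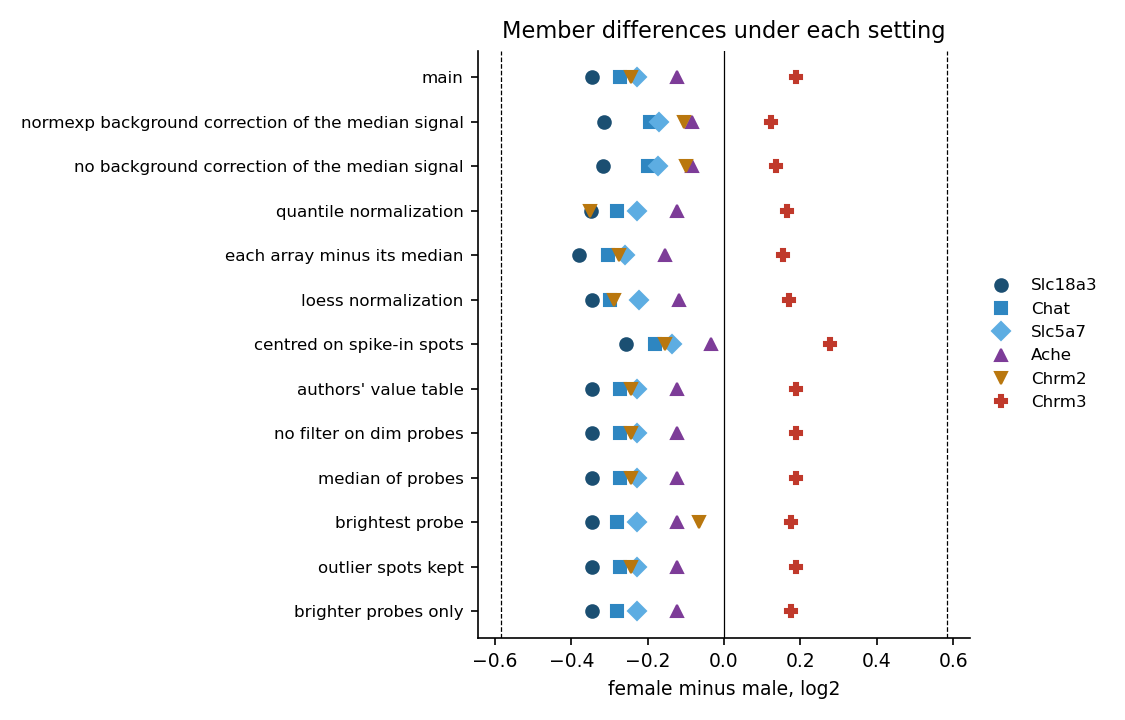
Female minus male difference of the 6 measured genes under the main setting and each of 12 others, with dashed lines at 1.5-fold. The 4 genes for making, packaging, recovering and breaking down acetylcholine stay left of 0 and Chrm3 stays right of it in every row, and no gene reaches 1.5-fold.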

How the data were processed

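The NTS of male and female SHR was measured on a 1-colour Agilent array, 1 per sex. Per the labels' protocols, equal amounts of RNA (100 ng per rat) from 5 rats were pooled and 100 ng was labelled. The deposited scanner files give linear spot intensities, corrected for background by Agilent Feature Extraction (9.1 in the submitters' processing notes, 11.5.1.1 per the file headers). The authors' deposited value table equals those intensities divided by a constant of 22.8 (male) and 23.4 (female).

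Here log2 of the processed intensity minus each array's 75th percentile was taken, without control spots and outlier-flagged spots. Spots of a probe were averaged, then probes well above background on both arrays. Of 45598 probes, 21109 were named by accession through RefSeq (GRCr8); the array design is on rn4. Probes with Ensembl identifiers were not matched. A fold of 1.5 was counted, with no test. The normexp offset was 50; median spot signals replaced the planned mean signals, which the files used here do not hold. The array number limits precision. The procedure was tested on simulated arrays. The changes planted there were larger than any difference of the measured members, so that check does not cover differences of their size. Genes and lists were chosen with earlier results of these data known. All 7 genes were named with every probe; from each pathway list those past 1.5-fold or else the 2 brightest, all other muscarinic receptors, and the 3 genes nearest Chat; others are marked as chosen after their values were seen. Some genes of the lists are not reported here. Versions were Python 3.11.15, numpy 2.4.6, pandas 2.3.3, R 4.3.3 and limma 3.58.1.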

Additional observations from a re-analysis of the deposited data

How the results depend on the processing

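None of the 6 genes measured on both arrays was past 1.5-fold under any of the 12 other settings. The count of members past the fold became 1 without the filter on dim probes, through Chrm1, and 1 at a smaller difference of 0.32 on the log2 scale, through Slc18a3. Over all named genes, 308 were past 1.5-fold. This count was 70 with normexp, 88 without background correction, 1647 without the filter on dim probes and 47 in the brighter probes, and it was 74 at 2-fold and 1093 at that smaller difference. Of the 308, 201 were higher in females and 107 in males. That split was 137 to 157 after quantile normalization, 291 to 80 after spike-in centring, 37 to 33 with normexp and 20 to 27 in the brighter probes. The cause of these shifts was not tested. The median of the measured members moved by less than the median scanner error of the single genes under all 12 settings. It ran from -0.27, with each array centred on its median, to -0.14 without background correction. No error of the median itself was computed. The dim probes of Chrm1 and Chrm2 limit what can be said of these genes. No paired analysis was possible because a single pool stood for males and a single pool for females, and nothing was tested.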
